A study of Homo sapiens with 6 samples.

Results

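The SLC25 genes encode the mitochondrial carriers, a family of membrane proteins that move metabolites, nucleotides and cofactors across the inner mitochondrial membrane. They were taken as every gene of the deposited count table whose name begins with SLC25A and a number, which gave 48 of 20030 names. All 48 were annotated as protein coding in GENCODE v29. Expression was compared by mRNA sequencing in KGN, a human granulosa-like tumour cell line, 48 h after transfection. The genotype was recorded as wild type, which was not checked here and need not hold for every gene of a tumour line. One group of 3 libraries had received a negative control siRNA and the other group of 3 an siRNA against the long noncoding RNA SNHG5, whose own level was not analysed here. KGN is a single cell line, and the labels do not say whether replicates were separate cultures, so a p-value here reflects the spread among these libraries alone, which may be technical. In such bulk RNA, fewer cells of a kind and less RNA per cell cannot be told apart.

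Carriers of this family share a fold of 3 repeated pairs of membrane-spanning helices and mostly work as exchangers, taking up one solute for another. Members pass ADP and ATP, phosphate, carboxylates, amino acids, nucleotides, coenzymes, glutathione or iron, and so join the pathways of the matrix to those of the cytosol. In steroid-forming cells, to which granulosa cells belong, mitochondria also hold the first step of steroid synthesis.

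Total counts ranged from 18232634 to 22088913 per library. The library that stood apart was SNHG5 siRNA replicate 2: its counts differed from those of replicates 1 and 3 with chi-square values of 8.61 and 8.81 for each degree of freedom, against 1.91 between replicates 1 and 3. Of 17 granulosa and KGN markers, 13 had over 3 counts in every library, among them FOXL2 (25.3 ± 1.40 CPM, counts scaled to library size, with control siRNA; SD, n = 3). The 17 summed to 9221 to 9483 CPM with control siRNA and 7647 to 8200 CPM with SNHG5 siRNA. Most of that sum was VIM (group means 4821 and 4691 CPM), KRT18 (3286 and 2441 CPM) and FST (823 and 308 CPM), so it says little of the other markers. In the test described below, FSHR, GATA4, FST and KRT18 were lower with SNHG5 siRNA, and INHBB and KRT8 were higher. The aromatase gene CYP19A1, at 0.235 ± 0.0658 CPM, and CYP11A1, at 0.118 ± 0.0734 CPM, were too low to be tested, as were INHA and AMHR2. Of the defining markers of other cells, CYP17A1 and INSL3 (theca), DDX4 and DAZL (germ cells), CD3E (T cells) and CDH5 and CLDN5 (endothelium) were at 0 in all 6 libraries. LHCGR, listed with theca but not particular to it, was also at 0. Other genes of these lists were seen in every library: PTPRC, of leukocytes, had 37 to 50 counts and VWF, of endothelium, 26 to 42 counts. KRT19, an epithelial keratin, had 14.9 ± 1.06 CPM in the control group and 17.2 ± 2.17 CPM in the other. The other epithelial markers listed were far lower: CDH1 had 13 to 28 counts per library and EPCAM 2 to 5, too low to be tested. In the test described below, KRT19 (log2 fold change 0.21) and CDH1 (-0.63) went in opposite directions, and neither passed. The 5 fibroblast and smooth muscle markers summed to 97.7 to 105 CPM with control siRNA and 67.3 to 71.0 CPM with SNHG5 siRNA. Nearly all of that sum was PDGFRB and ACTA2, with LUM at 0. PDGFRB alone made the sum fall: in the test described below it was lower (log2 fold change -0.85). ACTA2 went the other way (0.18) and did not pass. The part of these 5 markers in the results was not tested.

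With SNHG5 siRNA, single carriers changed in both directions while the family's total did not separate the groups. SLC25A32, the mitochondrial folate carrier, was 1.69-fold lower, and SLC25A33, a pyrimidine nucleotide carrier, 1.67-fold lower. SLC25A40, a glutathione carrier, was 1.42-fold higher, SLC25A20, the carnitine/acylcarnitine carrier, 1.34-fold higher, and SLC25A12 and SLC25A13, the aspartate/glutamate carriers, 1.30-fold and 1.21-fold higher.

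Of the 48 genes, 40 passed a filter on low counts and entered the quasi-likelihood test of edgeR. At an adjusted p under 0.05 (Benjamini-Hochberg over all 12508 genes tested), 9 were higher with SNHG5 siRNA, 7 were lower and 24 did not pass. The 16 that passed were 40.0% of those tested, against 40.4% of all tested genes (20.4% higher and 20.0% lower), so the share that changed was that of the background. The median log2 fold change of the tested members was 0.03, against -0.01 over all tested genes. Among members that passed, the median absolute log2 fold change was 0.36, against 0.33 among all genes that passed. None of the 40 had an absolute log2 fold change of 1 or more, which 255 of all tested genes had. In 21 members the groups did not overlap in CPM, 11 above and 10 below control, against 49.8% of all tested genes. With upper quartile scaling in place of TMM, which made 40.0% of all genes that passed higher in place of 50.5%, 7 members were higher and 11 lower.

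Carrier levels were compared between genes in FPKM, which the authors scaled to gene length. SLC25A5, an ADP/ATP exchanger, was the highest member at 291 ± 8.68 FPKM with control siRNA (SD, n = 3, as in all that follow), and SLC25A3, the phosphate carrier, was next at 240 ± 8.22 FPKM. Libraries of the control group lay at 285 to 301 FPKM for SLC25A5 and at 231 to 247 FPKM for SLC25A3, so these levels did not overlap. Together both held 59.3 ± 0.281% of the family's summed FPKM with control siRNA and 60.2 ± 0.739% with SNHG5 siRNA. A further 13 members lay between 10 and 100 FPKM, led by the citrate carrier SLC25A1 at 45.6 ± 2.65 FPKM and SLC25A39 at 42.6 ± 1.42 FPKM. Another 19 lay between 1 and 10 FPKM and 14 under 1 FPKM.

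**Figure D1:**
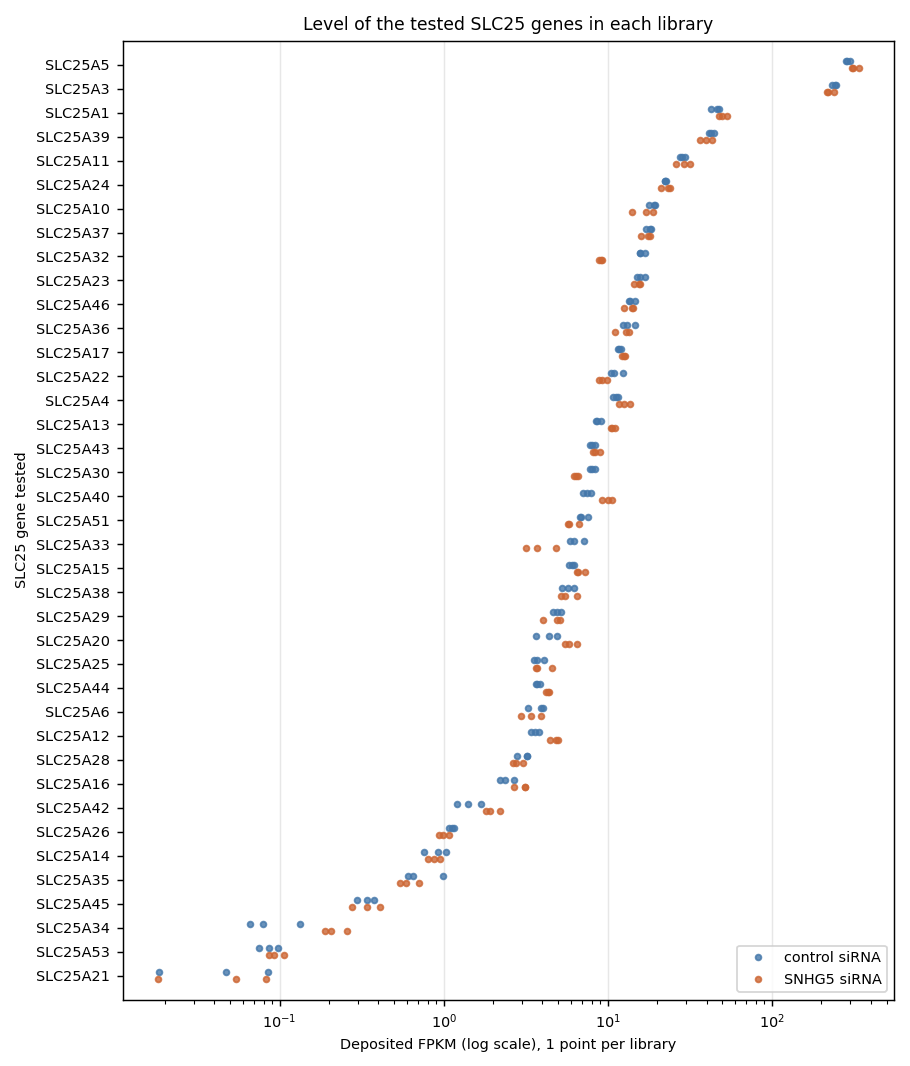
Deposited FPKM (horizontal, log scale) of 39 of the 40 tested SLC25 genes (vertical, ordered by control mean), with 1 point for each of 3 control siRNA (blue) and 3 SNHG5 siRNA (orange) libraries. SLC25A5 and SLC25A3 stand above 200 FPKM in every library, and the points of SLC25A32, SLC25A33 and SLC25A40 separate by group.

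Family counts summed to 2441, 2507 and 2516 CPM in control siRNA replicates 1, 2 and 3 and to 2420, 2526 and 2392 CPM in SNHG5 siRNA replicates 1, 2 and 3. The groups overlapped, with SNHG5 siRNA replicate 2 the highest of all 6. The group means were 2488 ± 41.2 and 2446 ± 70.7 CPM, a ratio of 0.983, which was 0.956 with upper quartile scaling and 1.01 in FPKM.

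The 8 members that were not tested had at most 5 counts in any library. SLC25A47 and SLC25A48 had 0 counts in all 6. SLC25A31, the ADP/ATP exchanger of the male germ line, had 1 count in 1 library, and SLC25A41 had 0 or 1. SLC25A2, SLC25A18, SLC25A27 and SLC25A52 were the others. A count of 3, taken as the floor of detection, was 0.135 to 0.165 CPM in these libraries and covers counting error only.

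Promoter sequence is shown for SLC25A33, the largest fall whose exons no other gene shares, and SLC25A40, the rise with the smallest p. SLC25A13, a smaller rise, was added for its motifs, since it shares an E-box and a CCAAT box with SLC25A33. Each is the 250 bases before the gene's start from RefSeq (GRCh38.p14), 5′ to 3′ on the gene's strand. They lie at chr1:9539215-9539464 (plus strand), chr7:96322099-96322348 (minus strand) and chr7:87876361-87876610 (minus strand) for SLC25A33, SLC25A13 and SLC25A40. Capitals mark matches, on either strand, to 5 motifs: the E-box CACGTG, the cAMP response element TGACGTCA, the CCAAT box CCAAT, the ETS core CCGGAAG and the nuclear respiratory factor motif, GCGCA followed by any base and GCGC.
SLC25A33: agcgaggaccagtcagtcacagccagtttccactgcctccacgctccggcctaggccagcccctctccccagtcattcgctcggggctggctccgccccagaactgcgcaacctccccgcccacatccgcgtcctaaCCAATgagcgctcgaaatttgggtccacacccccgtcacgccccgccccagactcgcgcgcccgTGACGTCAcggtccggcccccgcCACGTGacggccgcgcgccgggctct
SLC25A13: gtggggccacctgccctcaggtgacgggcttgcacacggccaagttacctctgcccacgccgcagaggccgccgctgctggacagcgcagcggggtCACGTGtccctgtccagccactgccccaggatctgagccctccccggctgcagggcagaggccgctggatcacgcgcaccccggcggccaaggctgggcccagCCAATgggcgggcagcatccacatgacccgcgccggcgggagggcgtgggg
SLC25A40: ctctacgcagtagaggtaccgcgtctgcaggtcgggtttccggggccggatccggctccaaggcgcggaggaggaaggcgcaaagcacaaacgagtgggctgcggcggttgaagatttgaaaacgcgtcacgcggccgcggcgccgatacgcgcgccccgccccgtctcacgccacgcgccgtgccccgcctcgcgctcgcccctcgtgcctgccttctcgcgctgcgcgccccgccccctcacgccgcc

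In SLC25A33 the E-box lay at bases -26 to -21 from the start, the cAMP response element at -49 to -42 and a CCAAT box at -113 to -109, with no overlap among them. SLC25A13 held an E-box at -154 to -149 and a CCAAT box at -51 to -47, and SLC25A40 held 0 of these motifs in this window. The RefSeq table matched 40 of the 48 members, among them some that were not tested. A member was counted once if any of its promoters held the motif, while the shares beside it count every promoter singly. Genes with several promoters have more chances of a match, so these figures are not like for like. An E-box was in 8 of these 40, against 6.34% of all 35116 promoters and 8.15% of 14646 promoters of tested genes. Of the 8, 1 rose (SLC25A13) and 1 fell (SLC25A33), the members whose E-boxes are printed above, and SLC25A31 was not tested. CCAAT boxes were in 20 of 40 members, against 32.0% and 33.0%. Of those 20, 5 rose, 3 fell and SLC25A27 was not tested. Of all tested genes 40.4% passed, 20.4% as higher and 20.0% as lower, so these counts are not read as a trait of members with a motif. ETS cores were in 11 (8.52% and 13.8%), the cAMP response element in 3 (1.65% and 2.40%) and the nuclear respiratory factor motif in 4 (5.07% and 8.49%). A match describes the letters of the window and is no measure of a factor's binding.

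The ADP/ATP exchangers bring ADP into the matrix and export ATP. Of 3 tested, 1 rose and 2 did not pass, or 33.3% passing against 40.4% of all tested genes. SLC25A4, the form of heart and muscle, had 58.5, 63.4 and 63.9 CPM in control replicates 1, 2 and 3 and 65.1, 79.2 and 70.5 CPM in SNHG5 siRNA replicates 1, 2 and 3. Every SNHG5 siRNA library was above the controls, with replicate 2 the highest, and SLC25A4 rose by 0.21 ± 0.07 (SE) on the log2 scale (edgeR adjusted p = 0.0201). The call ended without SNHG5 siRNA replicate 2 (0.13, adjusted p = 0.0604), without control siRNA replicate 1 (0.17, 0.107), with upper quartile scaling (0.17, 0.0652) and in FPKM (0.16, 0.0916).

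SLC25A5, the form of dividing cells, had 357, 376 and 365 CPM with control siRNA and 385, 429 and 381 CPM with SNHG5 siRNA. All SNHG5 siRNA values lay above the controls, but SLC25A5 did not pass, at a log2 fold change of 0.12 ± 0.05 (edgeR adjusted p = 0.0755; 0.12 and 0.0240 with the replicate block, 0.07 and 0.219 without SNHG5 siRNA replicate 2), and GENCODE v29 names 9 pseudogenes after it, whose reads may be shared. SLC25A6 had 6.30, 6.65 and 4.89 CPM with control siRNA and 5.10, 4.93 and 4.79 CPM with SNHG5 siRNA, groups that overlapped (log2 fold change -0.27 ± 0.14, edgeR adjusted p = 0.129; -0.39 and 0.0369 without control siRNA replicate 3, -0.19 and 0.405 without control siRNA replicate 2). GENCODE v29 lists SLC25A6 at 2 loci, 1 on each sex chromosome, and 6 pseudogenes named after it, so its count is uncertain; how reads with several matches were counted is not given in the sources used here.

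Phosphate carriers supply the phosphate for ATP synthesis, and the ATP-Mg/phosphate carriers adjust the adenine nucleotide pool under control of calcium. Of 4 tested genes, 0 rose, 1 fell and 3 did not pass, or 25% passing against 40.4% of all tested genes. SLC25A3 had 584, 613 and 628 CPM with control siRNA and 549, 603 and 542 CPM with SNHG5 siRNA. The groups overlapped through SNHG5 siRNA replicate 2, and SLC25A3 did not pass, at a log2 fold change of -0.11 ± 0.05 (edgeR adjusted p = 0.105). Without that library it was -0.15 and passed (0.00166), as it did with upper quartile scaling (-0.15, 0.0358), the GC trend removed (-0.15, 0.0279) and the replicate block (-0.11, 0.0387).

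SLC25A23 fell from 93.4 ± 1.19 to 84.7 ± 2.17 CPM (log2 fold change -0.14, edgeR adjusted p = 0.0447). Its groups did not overlap, yet the call ended in 10 of 15 alternatives, among them without any library other than SNHG5 siRNA replicate 2 (-0.16 to -0.12) and with the GC trend removed (-0.07, adjusted p = 0.358). SLC25A24 had 125 ± 4.62 and 130 ± 7.33 CPM and SLC25A25 25.9 ± 1.57 and 26.5 ± 2.67 CPM, with overlapping groups in both.

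Among carriers of carboxylates and acylcarnitines, which feed the citric acid cycle and bring in fatty acids for oxidation, 1 of 5 rose, 1 fell and 3 did not pass. That was 40% passing, against 40.4% of all tested genes. SLC25A20 rose from 11.1 ± 1.29 to 14.8 ± 1.23 CPM (log2 fold change 0.42 ± 0.10, edgeR adjusted p = 0.00231), with 9.75 to 12.3 CPM in the controls and 13.6 to 16.1 CPM with SNHG5 siRNA. The dicarboxylate carrier gene SLC25A10 fell from 46.4 ± 1.98 to 38.4 ± 4.40 CPM (-0.27 ± 0.07, edgeR adjusted p = 0.00635). SNHG5 siRNA replicate 3 was its lowest library at 33.7 CPM; without it SLC25A10 had -0.19 and did not pass (0.0593), nor did it pass in FPKM (-0.17) or with the GC trend removed (-0.14). Its exons share 46.6% of their bases with AC139530.2, annotated on the same strand.

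SLC25A1, which exports citrate for fatty acid and sterol synthesis, had 94.5 ± 3.37 and 94.4 ± 5.35 CPM. The oxoglutarate carrier gene SLC25A11 had 62.4 ± 3.68 and 59.9 ± 4.05 CPM. Neither passed, and the groups overlapped. SLC25A21, the oxodicarboxylate carrier gene, had 3 to 13 counts per library and a log2 fold change of 0.58 ± 0.52, which did not pass. That value was 1.29 without control siRNA replicate 3, 0.23 without control siRNA replicate 2 and 0.01 in FPKM with 0.1 added.

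Amino acid carriers gave 3 that rose, 1 that fell and 3 that did not pass of 7 tested. On these few genes that was 57.1% passing, against 40.4% of all tested genes. SLC25A12 and SLC25A13 encode the aspartate/glutamate exchangers of the malate-aspartate shuttle, which passes reducing equivalents from cytosolic NADH to the matrix. SLC25A12 had 21.8, 21.7 and 23.0 CPM with control siRNA and 29.8, 28.5 and 27.9 CPM with SNHG5 siRNA. SLC25A13 had 48.3, 51.9 and 51.3 CPM and 62.4, 62.2 and 58.2 CPM. In both genes all 3 SNHG5 siRNA libraries were above all 3 controls. The log2 fold changes were 0.38 ± 0.08 for SLC25A12 (edgeR adjusted p = 4.25e-04) and 0.27 ± 0.06 for SLC25A13 (0.00118).

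SLC25A22, which brings glutamate into the matrix, moved the other way. It had 41.6, 45.3 and 37.7 CPM with control siRNA and 33.2, 30.2 and 30.5 CPM with SNHG5 siRNA, with no overlap. Its log2 fold change was -0.41 ± 0.07 (edgeR adjusted p = 1.79e-04), and in FPKM it was -0.25 (limma adjusted p = 0.0254). SLC25A44, a carrier of branched-chain amino acids, rose from 39.7 ± 1.03 to 45.6 ± 1.68 CPM (0.20 ± 0.06, edgeR adjusted p = 0.0133). SLC25A44 did not pass when control siRNA replicate 1 (0.20, 0.0507), control siRNA replicate 2 (0.19, 0.0648) or SNHG5 siRNA replicate 3 (0.17, 0.0720) was left out.

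The members that did not pass were SLC25A15, the ornithine carrier gene of the urea cycle (26.8 ± 1.33 and 30.3 ± 2.09 CPM), SLC25A29, for basic amino acids (28.8 ± 1.68 and 25.4 ± 2.67 CPM), and SLC25A38, which imports glycine for haem synthesis (32.2 ± 2.50 and 31.3 ± 4.32 CPM). Without SNHG5 siRNA replicate 2, SLC25A15 passed at 0.21 (edgeR adjusted p = 0.0189) and SLC25A29 at -0.23 (0.0111). SLC25A15 had 0.12 (0.314) without SNHG5 siRNA replicate 1, and SLC25A29 had -0.10 (0.421) without SNHG5 siRNA replicate 3. With the replicate block SLC25A15 had 0.18 (0.0460) and SLC25A29 -0.18 (0.0445), and SLC25A29 also passed with upper quartile scaling (-0.22, 0.0435).

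**Figure D2:**
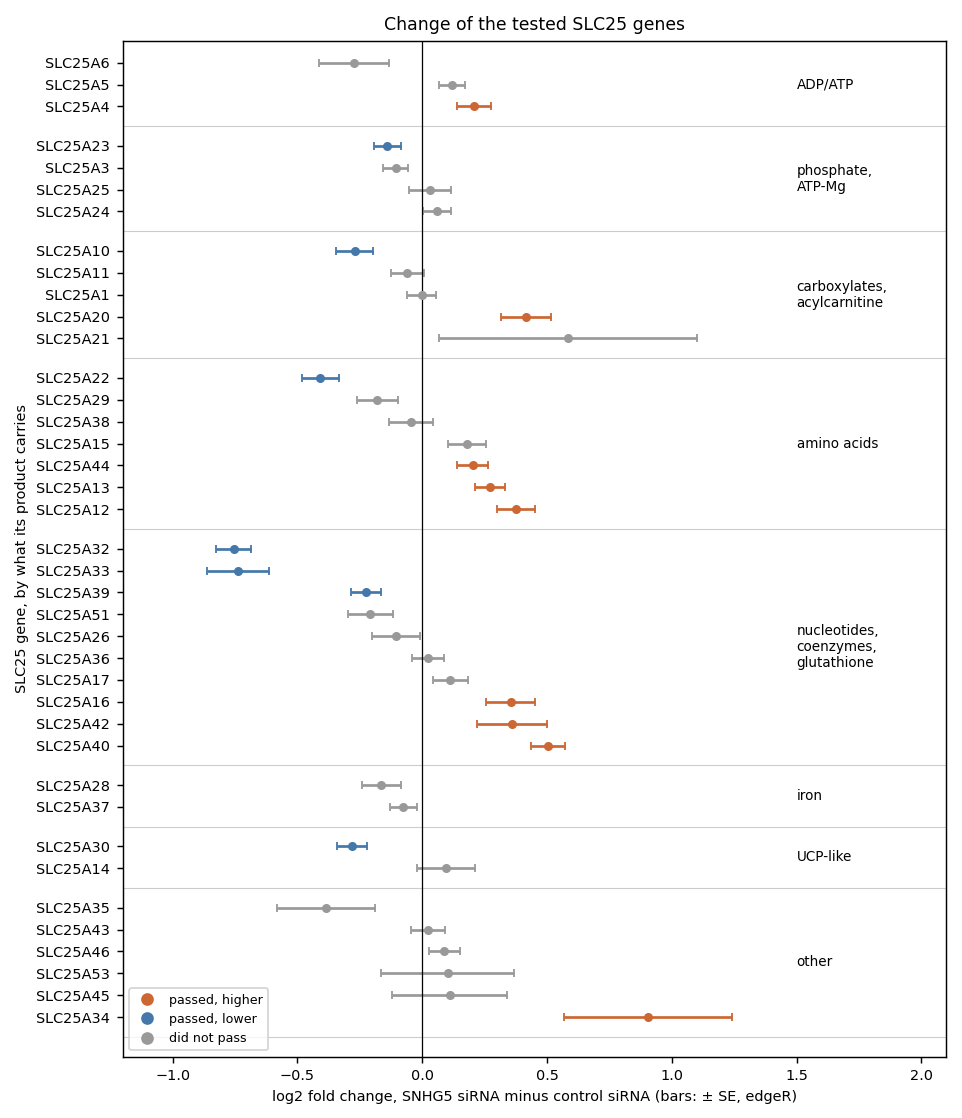
Log2 fold change of 39 of the 40 tested SLC25 genes, SNHG5 siRNA minus control siRNA (horizontal), grouped by what the product carries. Bars are ± SE, worked back from the F statistic of the edgeR test. Orange genes passed as higher (9), blue as lower (7) and grey did not pass (23), and the group of nucleotide, coenzyme and glutathione carriers spans from SLC25A32 at -0.76 to SLC25A40 at 0.50.

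Carriers of nucleotides, coenzymes, the methyl donor and glutathione held both the largest falls and the rise with the smallest p: 3 of the 11 that were tested rose, 3 fell, and 5 did not pass. On these few genes that was 54.5% passing, against 40.4% of all tested genes. SLC25A32, at chr8:103398635-103415189 (minus strand, GRCh38), had 48.9, 51.6 and 56.6 CPM with control siRNA and 29.7, 31.7 and 31.5 CPM with SNHG5 siRNA. The highest SNHG5 siRNA library was well under the lowest control. Its log2 fold change was -0.76 ± 0.07 (edgeR adjusted p = 2.28e-08) and ranged from -0.82 to -0.70 over 15 alternatives. In FPKM it fell from 16.1 ± 0.655 to 9.04 ± 0.222. AC012213.5 on the same strand, not analysed here, and DCAF13 on the opposite strand together cover 80.8% of its annotated exonic bases, and the strand of the libraries is not given in the sources used here. DCAF13, looked up after these values were seen, had 62.9 ± 4.22 and 59.9 ± 3.35 CPM and did not pass (log2 fold change -0.07, edgeR adjusted p = 0.420).

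SLC25A33, at chr1:9539482-9585179 (plus strand, GRCh38), had 13.6, 14.2 and 14.5 CPM with control siRNA and 7.0, 10.8 and 7.62 CPM with SNHG5 siRNA. All SNHG5 siRNA libraries lay below the controls, and replicate 2 was nearest to them. The log2 fold change was -0.74 ± 0.12 (edgeR adjusted p = 8.05e-05), and -0.95 (1.90e-13) without replicate 2. SLC25A36, the other pyrimidine nucleotide carrier gene, had 76.9 ± 5.00 and 78.2 ± 5.43 CPM, with overlapping groups and a log2 fold change of 0.02 ± 0.06; the difference between both genes was not tested.

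SLC25A39 and SLC25A40 encode related carriers that bring glutathione into the matrix, and they moved in opposite directions. SLC25A40, at chr7:87833568-87876357 (minus strand, GRCh38), had 29.02, 27.3 and 29.6 CPM with control siRNA and 39.5, 40.6 and 41.9 CPM with SNHG5 siRNA. Its groups lay far apart for their spread, with a log2 fold change of 0.50 ± 0.07 (edgeR adjusted p = 5.09e-06). SLC25A39, the more abundant per length, fell from 119 ± 6.90 to 102 ± 6.49 CPM (-0.23 ± 0.06, edgeR adjusted p = 0.00494). The fall of SLC25A39 did not pass in FPKM (-0.10, 0.238) or with the GC trend removed (-0.14, 0.0666), while the rise of SLC25A40 passed in all 15 alternatives.

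SLC25A16 and SLC25A42, both linked to coenzyme A in mitochondria, rose. SLC25A16 went from 11.3 ± 1.24 to 14.4 ± 0.753 CPM (0.35 ± 0.10, edgeR adjusted p = 0.00591; 0.22 in FPKM), with no overlap. SLC25A42 went from 5.59 ± 1.03 to 7.12 ± 0.751 CPM (0.36 ± 0.14, edgeR adjusted p = 0.0447). It was the 1 member that passed with overlapping groups, and it did not pass when control siRNA replicate 1 (0.25, 0.217), control siRNA replicate 2 (0.34, 0.118) or SNHG5 siRNA replicate 1 (0.27, 0.200) was left out, with DESeq2 (0.36, 0.0928) and with upper quartile scaling (0.32, 0.0732).

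The other members of this group did not pass. SLC25A51, the NAD+ carrier gene, had 16.1 ± 0.858 and 13.98 ± 1.18 CPM, with no overlap (-0.21 ± 0.09, edgeR adjusted p = 0.0696); it had -0.16 (0.245) without control siRNA replicate 2, and passed without SNHG5 siRNA replicate 3 (-0.28, 0.0318), with upper quartile scaling (-0.25, 0.0311) and with the replicate block (-0.21, 0.0496). SLC25A17, of the peroxisome, had 34.7 ± 1.97 and 37.4 ± 1.40 CPM. SLC25A26, for S-adenosylmethionine, had 13.0 ± 0.255 and 12.1 ± 1.45 CPM.

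Neither of the 2 mitoferrin genes passed, against 40.4% of all tested genes, and 2 genes are too few to set against that share. These carriers bring iron into the matrix for haem and iron-sulphur clusters. SLC25A37 had 162 ± 4.98 and 154 ± 9.52 CPM (log2 fold change -0.08 ± 0.05) with overlapping groups. SLC25A28 had 26.1 ± 1.66 and 23.3 ± 1.04 CPM (-0.16 ± 0.08, edgeR adjusted p = 0.102) without overlap, passed with upper quartile scaling (-0.21, 0.0423) and had -0.11 (0.371) without control siRNA replicate 2.

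Of 2 tested carriers named for their likeness to uncoupling proteins, 1 passed, or 50% against 40.4% of all tested genes. SLC25A30 fell from 48.2, 49.5 and 52.9 CPM to 41.2, 40.7 and 42.0 CPM. All SNHG5 siRNA values were below the controls (-0.28 ± 0.06, edgeR adjusted p = 0.00102). SLC25A14 had 6.52 ± 0.134 and 6.97 ± 0.304 CPM, which did not overlap and did not pass (0.10 ± 0.12).

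Among 6 tested members with other or less well known substrates, 1 rose and 5 did not pass, or 16.7% passing against 40.4% of all tested genes. SLC25A34, whose substrate is not well established, had 0.440, 0.542 and 0.660 CPM with control siRNA and 1.26, 0.956 and 0.824 CPM with SNHG5 siRNA, from 9, 11 and 12 and 28, 19 and 16 counts. The groups did not overlap, and the log2 fold change was 0.91 ± 0.34 (edgeR adjusted p = 0.0364) on few counts. It did not pass with DESeq2 (0.90, 0.111) or when control siRNA replicate 1 (0.77, 0.133), control siRNA replicate 2 (0.90, 0.0949) or SNHG5 siRNA replicate 1 (0.71, 0.175) was left out. In FPKM with 1 added, a scale that understates changes of low genes, its log2 fold change was 0.15.

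SLC25A46, an outer membrane member that takes part in mitochondrial shape, had 68.2 ± 4.73 and 72.5 ± 2.17 CPM. SLC25A43 had 37.3 ± 2.18 and 37.8 ± 1.89 CPM. SLC25A45 (1.52 ± 0.173 and 1.65 ± 0.142 CPM) and SLC25A53 (1.44 ± 0.446 and 1.54 ± 0.207 CPM) were low. SLC25A35, with 33.2% of its exonic bases shared with RANGRF on the opposite strand, had 4.18 ± 1.21 and 3.197 ± 0.565 CPM (-0.38 ± 0.20, edgeR adjusted p = 0.124), and moved with single libraries: it passed without control siRNA replicate 2 (-0.54, 0.0484) and had -0.12 (0.696) without control siRNA replicate 1.

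**Figure D3:**
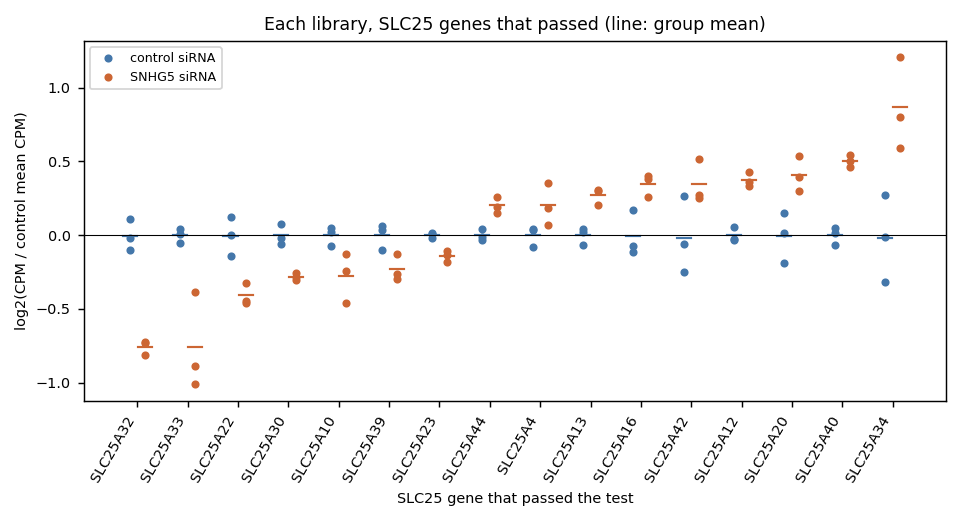
CPM in each library relative to the control mean, as log2 (vertical), for the 16 SLC25 genes that passed (horizontal, ordered by log2 fold change), with lines at group means. SLC25A42 is the 1 gene whose 3 control (blue) and 3 SNHG5 siRNA (orange) libraries overlap, and SLC25A33 shows SNHG5 siRNA replicate 2 nearest to the controls.

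Family members with other symbols were counted apart, since their names lie outside the rule. Of 4 tested, 2 rose and 2 did not pass, or 50% passing on these few genes against 40.4% of all tested genes. MTCH1 and MTCH2, outer membrane relatives of the carriers that take part in protein insertion, rose from 219 ± 6.61 to 267 ± 14.6 CPM (0.28, edgeR adjusted p = 1.74e-04) and from 132 ± 7.36 to 151 ± 4.69 CPM (0.20). UCP2 (3.33 ± 0.316 and 3.19 ± 1.06 CPM) and UCP3 (2.79 ± 0.0876 and 2.03 ± 0.393 CPM) did not pass.

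Carriers reach the inner membrane through receptors of the outer membrane, small TIM chaperones and the TIM22 complex. Of 17 tested genes of this route, 1 rose, 5 fell and 11 did not pass, or 35.3% passing against 40.4% of all tested genes. TOMM22, a receptor subunit of the outer membrane, rose from 60.4 ± 4.64 to 90.3 ± 4.23 CPM (log2 fold change 0.58). TIMM10, a chaperone of the intermembrane space, fell from 27.5 ± 1.27 to 21.6 ± 1.71 CPM (-0.35), TIMM29 fell by 0.27 and TIMM22, the channel subunit, by 0.22 on the log2 scale. AGK and TOMM40 were the others that fell, by 0.22 and 0.16. The groups of TOMM40 overlapped (117 to 133 CPM with control siRNA, 104 to 121 CPM with SNHG5 siRNA), and it passed narrowly (edgeR adjusted p = 0.0450).

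Of 21 tested genes of other mitochondrial channels and transporters, 3 rose, 2 fell and 16 did not pass, or 23.8% passing against 40.4% of all tested genes. ABCB6, a porphyrin transporter, fell from 79.3 ± 1.84 to 46.5 ± 3.66 CPM (-0.77). VDAC3, a porin of the outer membrane, rose by 0.29 and ABCB10 by 0.21, while VDAC1 fell by 0.14. The pyruvate carrier genes MPC1 and MPC2 had log2 fold changes of 0.01 and 0.03 and did not pass.

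Enzymes that make or use the carried solutes gave 4 higher, 10 lower and 11 not passing of 25. That was 56.0% passing, against 40.4% of all tested genes (20.4% higher and 20.0% lower). FECH, which places iron into haem, rose from 24.6 ± 1.09 to 37.1 ± 2.90 CPM (0.60), and ALAS1, the first enzyme of haem synthesis, fell from 69.1 ± 1.79 to 53.4 ± 2.88 CPM (-0.37). OGDH, of the citric acid cycle, fell by 0.32 on the log2 scale. Of the one-carbon enzymes that use folate in the matrix, named after their values were seen, SHMT2 (-0.25), MTHFD1L (-0.17) and MTHFD2 (-0.13, edgeR adjusted p = 0.0406) all fell. The folate carrier gene SLC25A32 fell too, and a link between them was not tested. In the malate-aspartate shuttle, GOT1 fell by 0.28, while GOT2, MDH1 and MDH2 did not pass.

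Regulators of mitochondrial biogenesis gave 1 higher, 2 lower and 9 not passing of 12, or 25.0% passing against 40.4% of all tested genes. PPARGC1A, a coactivator of mitochondrial genes, fell from 12.3 ± 0.466 to 10.0 ± 0.381 CPM (-0.29), ESRRA fell by 0.22 and YY1 rose by 0.22. The groups of ESRRA overlapped (35.2 to 42.3 CPM with control siRNA, 30.9 to 36.6 CPM with SNHG5 siRNA, edgeR adjusted p = 0.0324). TFAM (101 ± 5.12 and 96.9 ± 0.840 CPM) and NRF1 (17.9 ± 1.41 and 18.7 ± 0.702 CPM) did not pass. Of all tested genes, 40.4% passed, 20.4% as higher and 20.0% as lower. Over these lists together, 11 of 79 tested genes rose and 19 fell (38.0% passing), with a median log2 fold change of -0.03. The balance did not hold in all settings: in FPKM 14 were higher and 11 lower, and 11 were higher and 9 lower without SNHG5 siRNA replicate 1.

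**Figure D4:**
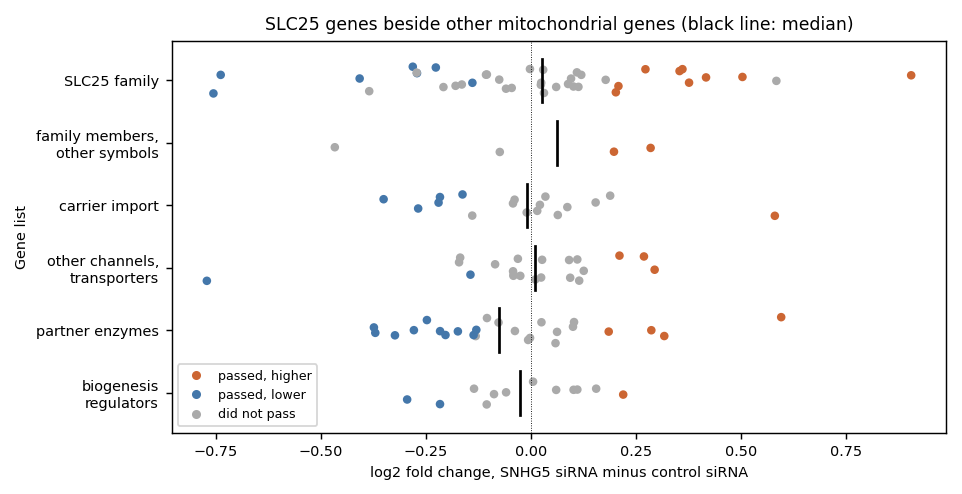
Log2 fold change, SNHG5 siRNA minus control siRNA (horizontal), of each tested gene of the SLC25 family and of 5 lists of other mitochondrial genes (vertical, points spread for legibility), with a black line at each median. The medians lie between -0.08 and 0.06, and each list but the family members with other symbols holds genes that passed in both directions.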

How the data were processed

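KGN mRNA was sequenced from 1 µg of total RNA with the SMARTER mRNA-seq kit, per the labels' protocols. The submitters' processing notes name Trimmomatic and GRCh38; the sources used here do not give the aligner, counter, annotation or strandedness. The values used were the authors' deposited counts, whole numbers without normalisation, and the authors' deposited FPKM, which take account of gene length and depth. Neither table held columns of other samples. Total counts were 18232634 to 22088913 per library.

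Library sizes were adjusted by TMM (factors 0.998 to 1.003) with edgeR 4.0.16 under R 4.3.3. Genes passing filterByExpr (12508 of 20030 names) were tested with glmQLFit and glmQLFTest (robust, two-sided), with Benjamini-Hochberg adjustment over all of them. The SE of a log2 fold change was worked back as its absolute value divided by the square root of the F statistic of that test. CPM use TMM-scaled library sizes. Alternatives used DESeq2 1.42.0, other scalings and filters, FPKM with limma 3.58.1 on log2 (1 or 0.1 added), each library left out, a replicate block, and a loess trend on transcript GC content removed (GC known for 98.7% of genes tested).

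The members and lists were chosen with earlier results of these data known. Every tested member but 1 is named; that member and a few genes of other lists are not reported here. Values in each library are given for called members with an absolute log2 fold change of at least 0.5, the 3 smallest p in each direction, and SLC25A3, SLC25A4, SLC25A5 and SLC25A6, besides a few others. From other lists, up to 4 called genes of largest change are named, with further genes (AGK, TOMM40, VDAC1, MPC1, MPC2, the one-carbon and shuttle enzymes, UCP2, UCP3, TFAM and NRF1) chosen after their values were seen.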

Additional observations from a re-analysis of the deposited data

How the results depend on the processing

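Of the 16 SLC25 genes that passed, 9 passed under all 15 alternatives: SLC25A12, SLC25A13, SLC25A16, SLC25A20, SLC25A22, SLC25A30, SLC25A32, SLC25A33 and SLC25A40. Over the 598 member values, 34 lost and 16 gained a call, 0 calls changed sign, and 35 values changed sign without passing either way. Upper quartile scaling gave 11 lower members, a median of -0.014 and a summed ratio of 0.956. FPKM, with 1 or 0.1 added, gave 4 lower members, 14 higher and 11 lower genes of the other lists (against 11 and 19) and a summed ratio of 1.01. The causes were not tested. With 1 library left out, higher members ranged from 5 (without control siRNA replicate 1) to 9, lower members from 6 to 9, their median from 0.01 to 0.04, the summed ratio from 0.967 to 0.994, and all genes called from 4030 to 5665. Of the other lists, 10 to 13 were higher and 9 (without SNHG5 siRNA replicate 1) to 20 lower, with 10 lower without control siRNA replicate 1 and 12 when SNHG5 siRNA replicate 3, or control siRNA replicate 2, was omitted, against 19 with every library.

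With the replicate block 11 members were higher and 10 lower, and 5780 genes were called in all, against 9, 7 and 5055 without it. The numbers were not taken to pair the libraries, since the labels do not say that a number marks a shared culture. Deviations of same-numbered libraries correlated at 0.08, 0.17 and 0.03 across genes, and those of other pairs at -0.14 to 0.10. Control replicates 2 and 3 correlated best with the SNHG5 siRNA library of their own number, and control replicate 1 with SNHG5 siRNA replicate 3 (0.10). Whether the libraries were paired cannot be told from these values. Members under 1 CPM, such as SLC25A34 and SLC25A21, rest on few counts.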
